A study of Bos taurus with 4 samples.

Results

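Cytosolic ribosomal protein genes were described in early blastocysts of Holstein heifers by comparing embryos made from oocytes of donors aged 14 months with embryos made from oocytes of the same heifers at 11 months. Members were taken by gene symbol: RPL or RPS followed by a number, with RPLP0, RPLP1, RPLP2 and RPSA, leaving out the RPS6K kinases, relatives that carry an L after the number such as RPL22L1, and RPS19BP1, which encodes a protein that binds RPS19 and is no part of the ribosome. The rule found 110 probes of 63 genes among 43794 bovine probes, 36447 of which were tested. Of these, 73 probes belonged to 39 genes of the large subunit and 37 probes to 24 genes of the small subunit. All 110 probes passed the filter on dim probes, and all 110 lay above the negative control spots in all 8 channels. The gene table used for symbols holds 77 protein-coding genes by the same rule, and 14 of them were not analysed here, among them RPL3, RPL10 and RPS4X.

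The study used 4 dual-colour EmbryoGENE arrays, a bovine embryo design, and each array carried the 14-month pool and the 11-month pool of 1 heifer. In both pools of every heifer the donors were stimulated with FSH after progesterone treatment, oocytes were matured and fertilized in vitro with semen of adult bulls, and embryos were cultured to the early blastocyst at 168 h after fertilization. RNA of each pool of embryos was amplified linearly and labelled with Cy3 or Cy5. The 14-month pool was in Cy3 in replicates 1 and 2 and in Cy5 in replicates 3 and 4, so that each dye orientation held 2 heifers. How many embryos made up a pool is unknown here. Donor age and collection date changed together in every heifer, and they cannot be told apart. A pool is a bulk sample, in which fewer cells of a type and less RNA per cell cannot be told apart.

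The cytosolic ribosome has a small subunit, which reads the mRNA, and a large subunit, which joins amino acids and releases the growing chain through an exit tunnel. Its proteins are assembled on ribosomal RNA in the nucleolus, and a lack of single proteins can free RPL5 and RPL11 to bind MDM2 and stabilize p53. Most ribosomal protein mRNAs start with a terminal oligopyrimidine tract, through which the mTOR pathway and LARP1 set their translation, so that mRNA and protein can differ. The early embryo lives on ribosomes stored in the oocyte until its own genome is switched on, and the blastocyst makes ribosomes of its own.

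Ratios are the authors' deposited log2 ratios with the sign turned, so that a positive value means a higher signal at 14 months than at 11 months. No member probe passed an adjusted p of 0.05 in the limma fit over all 36447 probes, and 0 probes of the whole array did, which is 0% of those tested. The lowest adjusted p of a member was 0.33, which was also the lowest of all probes. At an unadjusted limma p under 0.05 stood 11 of 110 member probes, or 10%, beside 9.20% of all tested probes. Of these, 7 were higher at 14 months, beside 5.11% of all tested probes, and 4 were lower at 14 months, beside 4.09% of all tested probes. By the deposited ratios these shares lie near the background. With ratios taken from the scanner files the same count was 15 probes, 13 higher and 2 lower at 14 months, or 13.6% beside 9.46% of all tested probes. After median centring it was 13 probes, 11 higher and 2 lower, or 11.8% beside 5.62% of all tested probes. Of the member probes 2 differed by at least 1.5-fold in the deposited ratios, against 2.00% of all tested probes.

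The sizes of the ratios were small in the mean and wide between heifers. Mean ratios of the member probes ran from -0.53 to 0.71, and single arrays from -1.84 to 1.35. The median absolute mean ratio was 0.12 for the members and 0.12 for all tested probes, while the median SD over the 4 heifers was 0.38 for the members and 0.27 for all tested probes. Reduced to the brightest probe of each gene, 22 of 63 genes had a mean ratio above 0 and 41 below 0, and 54.0% of all tested probes lay below 0. Over all 110 member probes the split was 52 above and 58 below 0. The balance depended on the scaling: by the scanner ratios 35 genes lay above and 28 below 0, without background correction 28 above and 35 below, and after median centring 47 above and 16 below, while the share of all tested probes below 0 was 50.9%, 51.0% and 51.7% in the same order. By the brightest probe and the deposited ratios, 2 genes were higher at 14 months at an unadjusted limma p under 0.05, beside 5.11% of all tested probes, and 3 were lower, beside 4.09%.

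**Figure D1:**
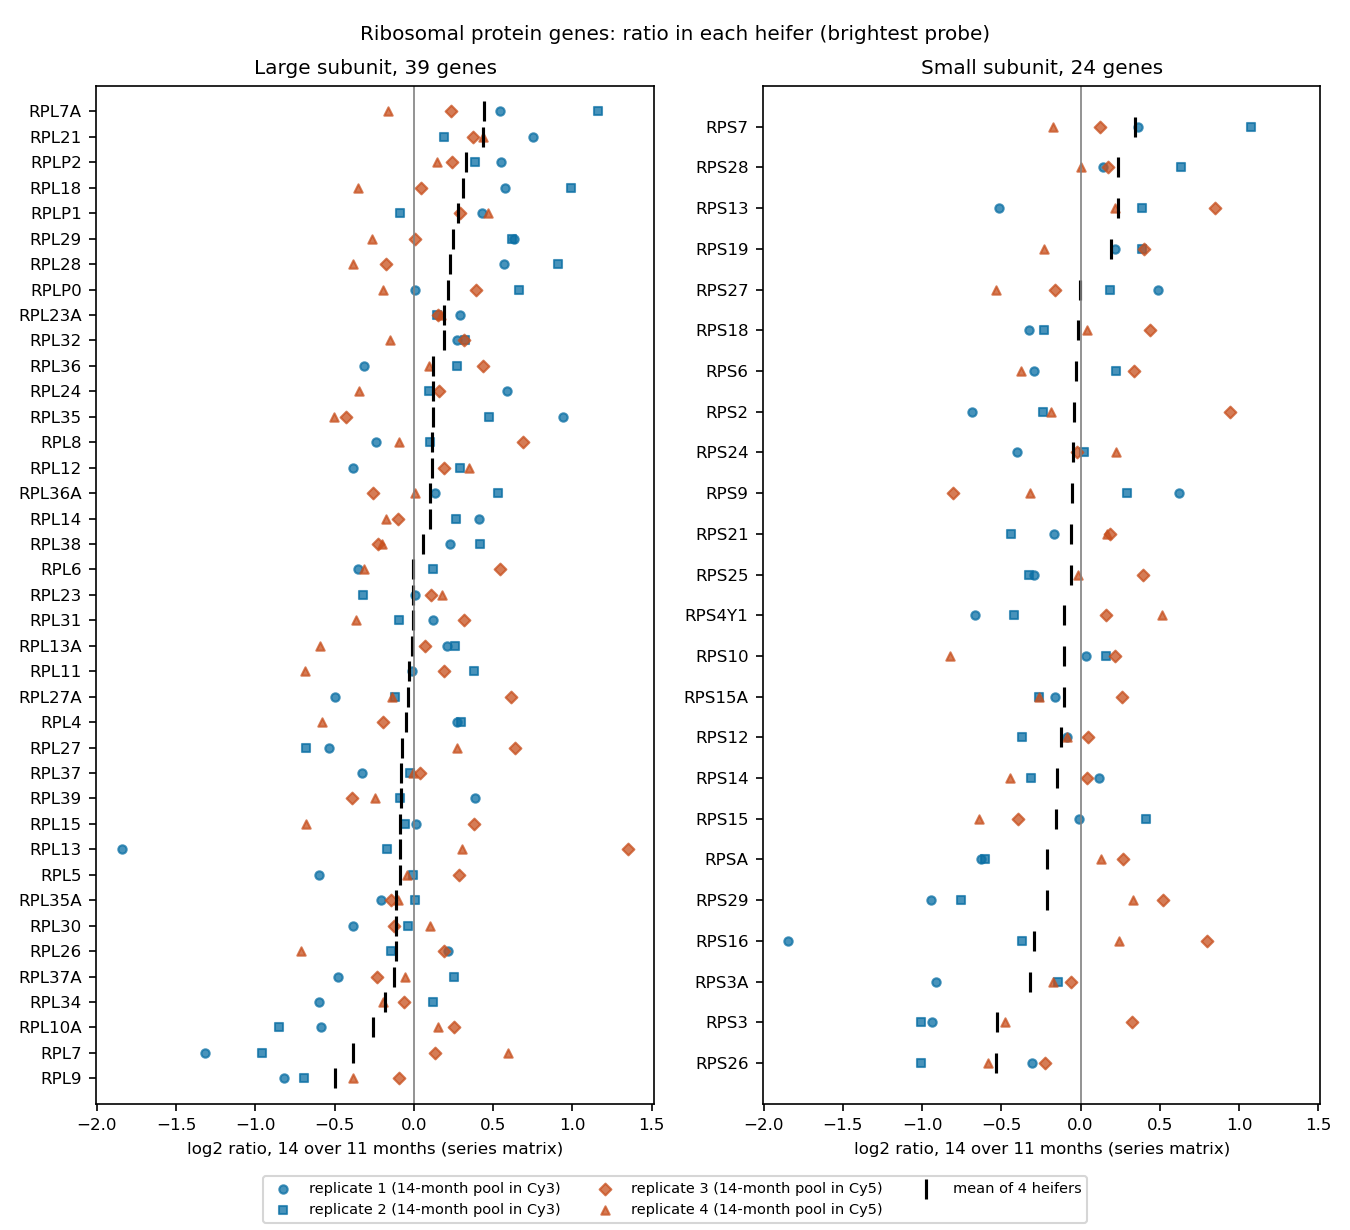
Log2 ratio of 14 over 11 months (horizontal axis) for the brightest probe of each of 39 large subunit genes (left) and 24 small subunit genes (right), sorted by the mean. Points are the 4 heifers, coloured by dye orientation, and black bars are means; most genes have heifers on both sides of 0, and RPL13 and RPS16 reach -1.84 in replicate 1.

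Of the 63 genes, 6 had a ratio of 1 sign in all 4 heifers. They were RPL21, RPLP2 and RPL23A, above 0, and RPS26, RPL9 and RPS3A, below 0. Among the member probes the count was 14 of 110, or 12.7%, beside 16.7% of all tested probes. These 6 genes do not share 1 place in the ribosome: they include a stalk protein, a protein at the exit tunnel and proteins of both subunits.

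The stalk proteins RPLP0, RPLP1 and RPLP2 form the flexible arm of the large subunit that recruits the elongation factors. Given in the order of replicates 1 to 4, as throughout, RPLP2 had log2 levels of 12.86, 12.59, 12.42 and 12.72 in the 14-month pools, against 12.25, 12.25, 12.23 and 12.46 in the 11-month pools. Its deposited ratios were 0.55, 0.39, 0.24 and 0.15. The mean was 0.33 ± 0.18 (SD, n = 4), with a limma adjusted p of 0.48. The 14-month pool was the higher one in every heifer, and only the highest of the 11-month levels lay above the lowest of the 14-month levels. RPLP1 had ratios of 0.43, -0.09, 0.29 and 0.47, with a mean of 0.28 ± 0.25 and a limma adjusted p of 0.61. Replicate 2 was the heifer on the other side of 0. The brightest RPLP0 probe had ratios of 0.01, 0.66, 0.39 and -0.20, with a mean of 0.22 ± 0.39. RPL12, which binds at the base of the stalk, had ratios of -0.39, 0.29, 0.19 and 0.35 and a mean of 0.11 ± 0.34. A dimmer RPL12 probe had a mean of 0.03 and correlated with the brighter one at r = -0.76 over the 4 arrays. All 3 stalk proteins thus had means above 0 by their brightest probes, but none passed the adjusted threshold, and this grouping was made after the values were seen. Of the 12 RPLP0 probes, 8 had means above 0 and 4 below 0.

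Among the other large subunit genes, RPL21 had 11.00, 10.14, 10.31 and 10.29 in the 14-month pools against 10.19, 9.91, 10.03 and 9.88 in the 11-month pools, as log2 levels of its brightest probe. Its ratios were 0.75, 0.19, 0.37 and 0.43, with a mean of 0.44 ± 0.23 and a limma adjusted p of 0.39. The 14-month pool was higher in each heifer by this probe, while other RPL21 probes went elsewhere, as described with the probes of 1 gene. RPL23A, which lies at the mouth of the exit tunnel, had the narrowest spread of all members: its ratios were 0.29, 0.15, 0.15 and 0.17, with a mean of 0.19 ± 0.07 and a limma adjusted p of 0.70. RPL7A had ratios of 0.54, 1.16, 0.23 and -0.16, with a mean of 0.44 ± 0.56. RPL18 had ratios of 0.57, 0.99, 0.04 and -0.35, with a mean of 0.31 ± 0.59. In both genes the means rest on replicates 1 and 2. Their mean ratio in replicates 1 and 2 was 0.85 for RPL7A and 0.78 for RPL18, and in replicates 3 and 4 it was 0.04 for RPL7A and -0.16 for RPL18.

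RPL9 was the large subunit gene with the lowest mean ratio. Its log2 levels were 13.83, 13.51, 14.32 and 14.17 in the 14-month pools, against 14.73, 14.31, 14.09 and 14.11 in the 11-month pools. The deposited ratios were -0.82, -0.70, -0.09 and -0.38, with a mean of -0.50 ± 0.33 and a limma adjusted p of 0.38. Every deposited ratio was below 0, whereas by the scanner levels replicates 3 and 4 were slightly higher at 14 months. RPL10A, of the side arm that helps spent tRNA to leave, had ratios of -0.58, -0.85, 0.25 and 0.15, with a mean of -0.26 ± 0.54. RPL34 had ratios of -0.60, 0.12, -0.06 and -0.19, with a mean of -0.18 ± 0.30. RPL5 and RPL11, which carry the smallest ribosomal RNA into the large subunit and can bind MDM2, had means of -0.09 ± 0.37 and -0.03 ± 0.47. Neither of these means was larger than its spread between heifers, and a second RPL11 probe had a mean of 0.25.

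Small subunit genes had 4 means above 0 and 20 below 0 by the deposited ratios, where 54.0% of all tested probes lay below 0. Over the 37 small subunit probes, 11 lay above and 26 below 0. The split of the 24 genes was 8 above and 16 below by the scanner ratios, 7 and 17 without background correction, and 15 and 9 after median centring. RPS26, which lines the channel where mRNA leaves, had the lowest mean of all members. Its log2 levels were 7.68, 6.94, 7.49 and 7.30 in the 14-month pools, against 7.93, 7.87, 7.69 and 7.63 in the 11-month pools. The deposited ratios were -0.31, -1.01, -0.22 and -0.58, with a mean of -0.53 ± 0.35 and a limma adjusted p of 0.37. The 14-month pool was lower in every heifer, and this probe was among the 3 dimmest of the 63. RPS3, which lies at the mRNA entry and also acts in DNA repair, had ratios of -0.94, -1.01, 0.32 and -0.48, with a mean of -0.52 ± 0.61 and a limma adjusted p of 0.50. Replicate 3 was on the other side of 0.

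RPS3A had ratios of -0.91, -0.14, -0.06 and -0.18, with a mean of -0.32 ± 0.39 and a limma adjusted p of 0.61. Replicate 1 stood apart from the other three, and without it the mean was -0.13. The neighbours of RPS3 at the mRNA entry gave smaller means, -0.04 ± 0.69 for RPS2 and -0.05 ± 0.64 for RPS9. RPS2 turned above 0 under each of the 3 other scalings, and a second RPS9 probe had a mean of 0.26. RPSA, also known as the laminin receptor, had ratios of -0.63, -0.60, 0.26 and 0.13 and a mean of -0.21 ± 0.47 by its brightest probe. The 2 dimmer RPSA probes had means above 0, the higher of them at 0.12.

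On the other side of 0, RPS7 had ratios of 0.36, 1.07, 0.12 and -0.18, with a mean of 0.34 ± 0.53. A dimmer RPS7 probe had a mean of 0.09 and a ratio of -0.20 in replicate 2. Over the 4 arrays both probes correlated at r = -0.32. RPS28 had ratios of 0.14, 0.63, 0.17 and 0.00 and a mean of 0.24 ± 0.27. RPS13 had ratios of -0.52, 0.38, 0.84 and 0.22 and a mean of 0.23 ± 0.57. In human, heterozygous loss of several ribosomal protein genes causes Diamond-Blackfan anaemia. In a short list of 8 such genes, 2 had means above 0 and 6 below 0, from -0.53 for RPS26 to 0.34 for RPS7. This split holds for the listed genes only and depends on which genes are listed. Among all 63 genes, 22 lay above and 41 below 0 by the same ratios, a balance that depended on the scaling.

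The large and the small subunit were then compared in each array. The median ratio of the large subunit genes was 0.02, 0.12, 0.16 and -0.15 in replicates 1 to 4, and that of the small subunit genes was -0.29, -0.23, 0.20 and -0.18. The large minus small difference was 0.31, 0.35, -0.05 and 0.02, with a mean of 0.16 ± 0.20 (SD, n = 4), smaller than its spread. The difference was thus seen in the 2 heifers whose 14-month pool was in Cy3 and was near 0 in the other 2. With ratios from the scanner files it was 0.25, 0.26, -0.09 and -0.03. By the medians of the 4-array means the subunits were 0.08 apart, with -0.01 for the large and -0.08 for the small subunit. By the same measure the subunits were 0.25 apart in replicates 1 and 2 and -0.05 apart in replicates 3 and 4. The median over all 63 genes was -0.09, 0.09, 0.19 and -0.16, beside -0.01, -0.01, 0.00 and -0.03 for all tested probes. The 77 mitochondrial ribosomal protein genes, whose products form the ribosome of the mitochondrion, had medians of 0.00, 0.07, 0.14 and -0.13 on the same arrays.

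**Figure D2:**
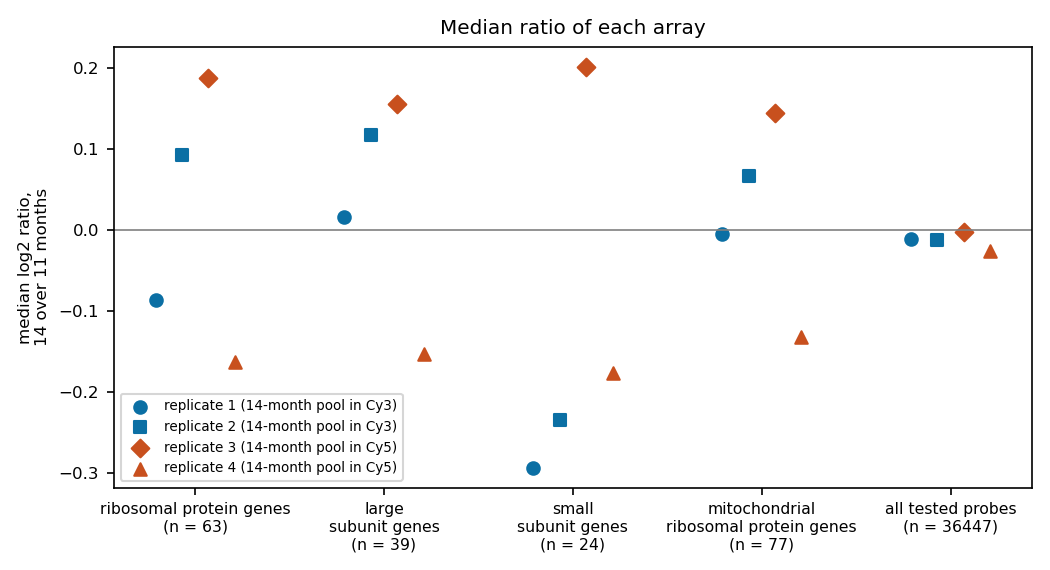
Median log2 ratio of 14 over 11 months (vertical axis) of each array for the 63 ribosomal protein genes, both subunits, 77 mitochondrial ribosomal protein genes and all 36447 tested probes. Points are the 4 heifers; the small subunit median is at -0.29 and -0.23 in replicates 1 and 2, where the large subunit median is at 0.02 and 0.12.

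The scaling of bright spots moved these medians. All 110 member probes were brighter than the median of the tested probes, with mean log2 levels from 7.03 to 15.06 and a median of 13.57, and 95 lay above 10.39, where the top 10% of the tested probes begins. The brightness of a spot depends on the probe as well as on the RNA, and no order of transcript amounts is read from it. The highest raw signal of a member was 53694, below the scanner's limit of 65535. When the ratios were recomputed from the scanner files by normexp and loess, the median over the 63 genes was -0.22, -0.10, 0.29 and 0.18, against -0.09, 0.09, 0.19 and -0.16 in the deposited ratios. The median of the 4-array means was 0.02 by the scanner files and -0.04 by the deposited ratios. The ratios of the 63 genes correlated between both sources at r = 0.98, 0.94, 0.91 and 0.83 within replicates 1 to 4, as a description across genes, which are not independent. Levels in this text come from the scanner files, and their difference need not equal the deposited ratio.

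**Figure D3:**
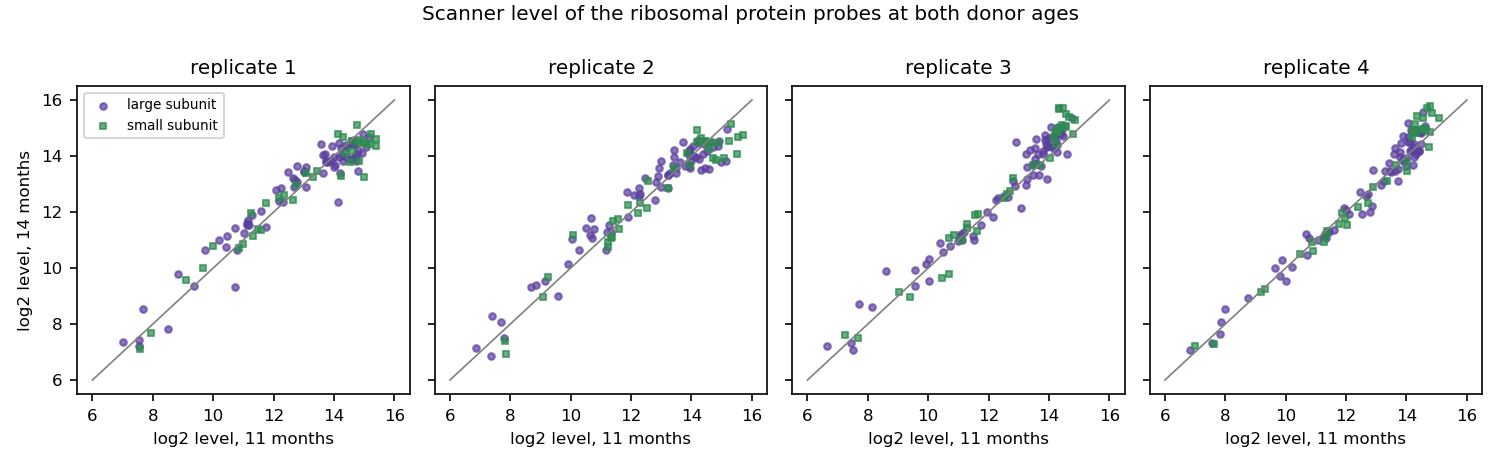
Log2 scanner level of the 110 member probes at 14 months (vertical axis) against 11 months (horizontal axis) in each heifer, with the line of equality. The brightest probes lie mostly below the line in replicate 1 and mostly above it in replicates 3 and 4, the heifers whose 14-month pool was in Cy5.

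Heifers of 1 dye orientation resembled each other more than heifers of different orientations. Over the 63 genes, the ratios of replicates 1 and 2 correlated at r = 0.62 and those of replicates 3 and 4 at r = 0.35. Between orientations r was -0.52, -0.21, -0.39 and -0.25, so that all 4 such pairs lay below 0. Over all tested probes the same correlations were 0.56 and 0.31 within orientations and between -0.17 and 0.12 across them. These values describe 4 arrays whose dyes and heifers differ together. Of the member probes, 30 of 110, or 27.3%, had 1 sign in both heifers of an orientation and the opposite sign in both of the other, beside 24.6% of all tested probes.

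A dye coefficient fitted to each probe, the difference between the orientations, passed an adjusted limma p of 0.05 for 7 of 110 member probes, beside 2.38% of all tested probes. It stood at an unadjusted p under 0.05 for 43 of 110 member probes, or 39.1%, beside 22.4% of all tested probes. The median log2 level was 13.57 for the members and 7.02 for all tested probes, and shares at like brightness were not computed. The 7 probes belonged to RPL7, RPL27, RPL35, RPS29 and, with 3 probes, RPLP0. RPL35, which sits at the exit tunnel, had ratios of 0.94, 0.48, -0.43 and -0.50, so that its mean of 0.12 ± 0.70 joins heifers on both sides of 0. RPS29 had ratios of -0.94, -0.75, 0.52 and 0.33 and a mean of -0.21 ± 0.74. With 2 heifers in each orientation, dye and heifer cannot be told apart.

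In a fit that carries this dye term, 2 of 110 member probes passed an adjusted p of 0.05, beside 1.02% of all tested probes. Both were dimmer probes of their gene, 1 of RPL7, with a limma adjusted p of 0.027, and 1 of RPL28, with a limma adjusted p of 0.044. In replicates 1 and 2 alone the 14-month pool was always in Cy3, so that donor age and dye cannot be told apart there. The same limit holds for replicates 3 and 4 alone, with the 14-month pool in Cy5. By replicates 1 and 2, 25 of 110 member probes passed, beside 7.20% of all tested probes. Of these, 17 had a higher and 8 a lower signal in the 14-month pool. In replicates 3 and 4 alone 0 of 110 passed, beside 0.00274% of all tested probes, with a lowest adjusted limma p of 0.14. At an unadjusted p under 0.05 stood 22 of 110 member probes with the dye term, or 20%, beside 16.5% of all tested probes. The count was 46, or 41.8%, in replicates 1 and 2 alone, beside 23.4%, and 26, or 23.6%, in replicates 3 and 4 alone, beside 15.0%. It was 22, or 20%, without replicate 4, beside 10.6%. The probe with the lowest adjusted p in replicates 1 and 2 was the brightest RPL7 probe, with a mean of -1.14 there and of 0.36 in replicates 3 and 4. With 4 heifers, an exact sign test could not fall below a p of 0.125.

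**Figure D4:**
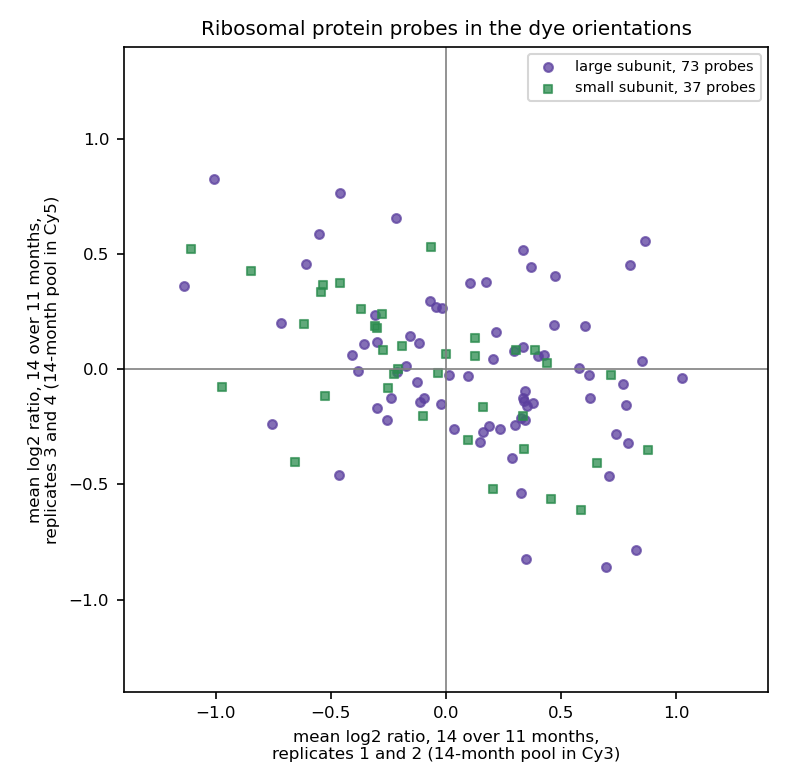
Mean log2 ratio of 14 over 11 months in replicates 3 and 4 (vertical axis) against replicates 1 and 2 (horizontal axis) for the 110 member probes, 73 of the large subunit (circles) and 37 of the small subunit (squares). Points in the upper left and lower right have opposite signs in the dye orientations; the point farthest left is the brightest RPL7 probe at -1.14 and 0.36.

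Several probes of 1 gene could be compared for 26 genes with 73 probes. Of these, 16 genes had 2 probes, 7 had 3, 2 had 4 and RPLP0 had 12. In 11 genes all probes had a mean ratio of the same sign, and in 15 genes both signs occurred. The range of probe means within a gene ran from 0.0077 for RPS25 to 1.10 for RPL7, with a median of 0.29, which is larger than the median absolute ratio of the members. In 8 genes the median correlation between probes over the 4 arrays was above 0.9, and in 5 genes it was below 0. Ribosomal protein genes have many processed copies in mammalian genomes, probe sequences were not used here, and whether a probe reads another copy or transcript form was not tested.

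RPL7, a large subunit protein that binds RNA, had the widest range. Its brighter probe had log2 levels of 13.48, 13.82, 14.95 and 15.17 in the 14-month pools, against 14.79, 15.14, 14.44 and 14.06 in the 11-month pools. The deposited ratios of this probe were -1.32, -0.96, 0.13 and 0.59, with a mean of -0.39 ± 0.90 and a limma adjusted p of 0.76. Its dimmer probe had log2 levels of 8.53, 8.28, 8.61 and 8.53 in the 14-month pools, against 7.69, 7.38, 8.15 and 8.00 in the 11-month pools. The ratios of the dimmer probe were 0.85, 0.88, 0.49 and 0.63, with a mean of 0.71 ± 0.19 and a limma adjusted p of 0.33, at an unadjusted p of 0.00037. By the dimmer probe the 14-month levels lay above all 11-month levels, and by the brighter probe the order of the ages turned between replicates 2 and 3.

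RPL21 was the gene with probes at an unadjusted p under 0.05 in both directions. Of its 4 probes, the brightest stood at 0.44, and the second had a mean of -0.12 ± 0.41. The third had ratios of -0.39, -0.54, -0.51 and -0.41, with a mean of -0.46 ± 0.07 and a limma adjusted p of 0.35. The dimmest had ratios of 0.36, 0.31, 0.65 and 0.39, with a mean of 0.43 ± 0.15 and a limma adjusted p of 0.37. The third and the dimmest probe each kept 1 sign in all 4 heifers, and the signs were opposite. RPS26 had a second probe with ratios of -0.55, -0.52, 0.39 and 0.34, whose mean was -0.09 ± 0.52 against -0.53 by the brighter one. RPL28 had 3 probes, all with means above 0, and the dimmest had ratios of 0.63, 0.96, 0.61 and 0.30, with a mean of 0.63 ± 0.27 and a limma adjusted p of 0.33. This probe was chosen after its values were seen.

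RPLP0, often used to normalize PCR measurements, had 12 probes whose means ran from -0.24 to 0.40, 8 above 0 and 4 below. On single arrays they ran from -0.05 to 0.98 in replicate 1, from 0.08 to 0.83 in replicate 2, from -0.87 to 0.70 in replicate 3 and from -0.84 to 0.18 in replicate 4. In replicate 2 the 12 probes were all above 0, while replicate 3 held probes on both sides. The correlation of probe pairs over the 4 arrays ran from -0.44 to 1.00. RPL13A, another gene used to normalize, and in human a silencer of inflammatory mRNAs, had a bright probe at -0.01 ± 0.39 and a dimmer one at 0.40 ± 0.39, with a limma adjusted p of 0.51 for the dimmer. The sign of the bright RPL13A probe turned under 2 of the 3 other scalings.

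In other genes the probes ran together across heifers. The 4 RPL18 probes had means from 0.30 to 0.49 and correlated at r from 0.92 to 1.00. All 4 were above 0 in replicates 1, 2 and 3 and below 0 in replicate 4. The 3 RPL13 probes correlated at r from 0.96 to 0.99 although their means ran from -0.09 to 0.22. The brightest RPL13 probe had ratios of -1.84, -0.17, 1.35 and 0.30, the widest spread of all members at an SD of 1.33. The 3 RPSA probes disagreed: the brightest was below 0 in replicates 1 and 2 and above 0 in replicates 3 and 4, and the second was the reverse, with ratios of 0.86, 0.44, -0.31 and -0.50. The third RPSA probe averaged 0.33 in replicates 1 and 2 and -0.20 in replicates 3 and 4. The lowest correlation between RPSA probes was -0.94.

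**Figure D5:**
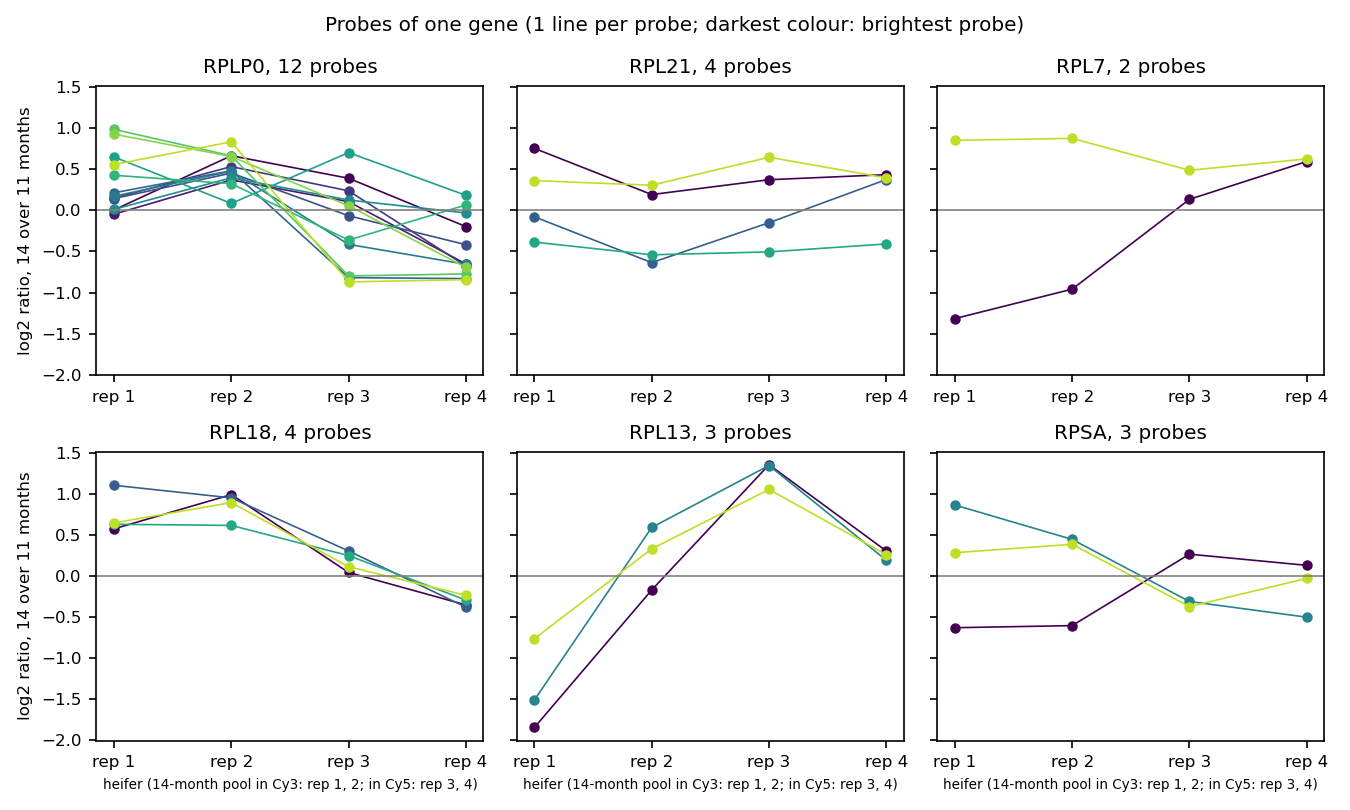
Log2 ratio of 14 over 11 months (vertical axis) in replicates 1 to 4 (horizontal axis) for every probe of 6 genes. Each line is 1 probe, the darkest the brightest; the probes of RPL18 and RPL13 run together, the 2 of RPL7 lie 1.10 apart in the mean, and those of RPSA cross.

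Genes that make ribosomes or share their mRNA control were read beside the members by the brightest probe. None of them passed an adjusted p of 0.05. Counts in these lists are at an unadjusted limma p under 0.05, where 5.11% of all tested probes were higher and 4.09% lower at 14 months. Of 101 ribosome assembly factors tested, 2 were higher and 3 lower at 14 months, shares below those of all tested probes, and their median was -0.01. SENP3, a protease that removes SUMO from assembly factors, had a mean of -0.54 ± 0.29 with a limma adjusted p of 0.35. UTP6, of the early small subunit precursor, had -0.42 ± 0.21 with a limma adjusted p of 0.39. Both had ratios below 0 in all 4 heifers. Of 18 genes of RNA polymerase I, which transcribes ribosomal RNA, 0 were higher and 1 lower, and their median was -0.04. That gene was RRN3, its initiation factor, above the controls in 5 of 8 channels, with ratios of -0.51, -0.74, -0.30 and -0.35, a mean of -0.47 ± 0.20 and a limma adjusted p of 0.35. POLR1D, a subunit of the polymerase, had a mean of 0.44 ± 0.54.

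By the same threshold and beside the same shares of all tested probes, 2 of 18 regulators of terminal oligopyrimidine mRNAs were higher and 1 was lower, and their median was 0.01. SSB, the La protein, which binds such mRNAs, had 0.43 ± 0.26 with a limma adjusted p of 0.40. TSC2, which restrains mTOR, had 0.35 ± 0.30 with a limma adjusted p of 0.52. The 21 other transcripts with the tract held 1 higher and 3 lower ones, and their median was -0.12. EEF1A1, which brings aminoacyl-tRNA to the ribosome, had ratios of -0.01, 0.36, 1.18 and 0.65, a mean of 0.54 ± 0.50 and a limma adjusted p of 0.43. EIF2S3, a subunit of initiation factor eIF2, had -0.44 ± 0.37 with a limma adjusted p of 0.44. In the list of the link from ribosomal proteins to p53, 5 genes were tested, 0 were higher and 1 lower, and the median was -0.11. CDKN1A, a p53 target that stops the cell cycle, had -0.32 ± 0.17 with a limma adjusted p of 0.49. NPM1, a nucleolar chaperone that is also in other lists, had -0.30 ± 0.24. The 7 relatives outside the rule held 0 in either direction, with a median of -0.05. RPL22L1 had 0.38 ± 0.50 there, and FAU, which encodes the small subunit protein RPS30 fused to a ubiquitin-like part, had -0.21 ± 0.23.

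Marker genes of the blastocyst were measured in the same pools. All 11 trophectoderm markers, of the outer layer that forms the placenta, lay above the negative controls in all 8 channels, and their summed level was 15.92 to 16.78 in the 14-month pools against 15.88 to 16.68 in the 11-month pools. Among them AQP3 had -0.60 ± 0.33 and DAB2 0.45 ± 0.28. The 8 inner cell mass markers summed to 13.42 to 13.61 in the 14-month pools against 13.54 to 13.81 in the 11-month pools, with NANOG at -1.12 ± 0.37, below 0 in all heifers at a limma adjusted p of 0.33, and SPP1 at 0.48 ± 0.19. The 7 primitive endoderm markers summed to 14.87 to 16.02 in the 14-month pools against 14.91 to 15.69 in the 11-month pools, with GATA4 at 0.29 ± 0.26 and SOX17, above the controls in 4 of 8 channels, at -0.19 ± 0.09. Transcripts of cumulus cells, oocytes and sperm lay partly at background: 5 of 11 cumulus, 2 of 9 oocyte and 1 of 8 sperm markers were above the negative controls in all 8 channels, and ratios of the others are uncertain. The 11 cumulus markers summed to 10.64 to 10.81 in the 14-month pools against 10.43 to 10.93 in the 11-month pools, with VCAN, above the controls in 3 of 8 channels, at 0.31 ± 0.14 and DCN, above them in 2, at -0.26 ± 0.06. The 9 oocyte transcripts summed to 10.20 to 10.35 in the 14-month pools against 10.09 to 10.36 in the 11-month pools, with NLRP5, above them in 5 of 8 channels, at 0.43 ± 0.23 and FIGLA at -0.27 ± 0.19. The 8 sperm markers summed to 9.73 to 9.90 in the 14-month pools against 9.74 to 10.19 in the 11-month pools. CATSPER1, above them in 4 of 8 channels, stood at 0.41 ± 0.09 and SPATA18 at -0.20 ± 0.26, and PRM2 was not above the controls in any channel. The ranges of all 6 lists overlapped between the ages, but a range over heifers does not pair the ages of 1 heifer. A shift within heifers was not read from these sums. Sums are log2 of the added intensities, and their part in the ribosomal protein ratios was not tested.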

How the data were processed

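Total RNA of 8 embryo pools was measured on 4 arrays. Scanner files give each spot's intensity in both channels on a linear scale, as deposited and per the file headers. The authors also deposited normalized log2 ratios, which run 11 over 14 months and were turned here. Their normalization is not described in the sources used here: the values matched background-subtracted, loess-normalized scanner ratios at r from 0.986 to 0.993 per array, which also gave the direction, and the deposited columns had medians of 0.0085, 0.0034, 0.0010 and 0.0234. Scale and centring by the authors are otherwise unknown. Levels given per pool are log2 intensities after normexp (offset 50), loess and Aquantile scaling of the deposited intensities. Mean levels set beside all tested probes are after normexp alone. The same mean levels served for the filter and to rank probes by brightness. Per the labels' protocols RNA was amplified in 2 rounds, which can change relations between transcripts.

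Probes were tested where the mean log2 intensity exceeded that of 153 negative control spots by 2 of their SDs (limit 6.50), which left out 7347 of 43794 probes. For single channels a limit was set in the same way from the negative controls of that channel and array. Above it lay 63.6% to 68.1% of probes in the 14-month pools and 65.0% to 71.6% in the 11-month pools. limma 3.58.1 in R 4.3.3 fitted 1 coefficient, two-sided, with Benjamini-Hochberg adjustment, and was tested on simulated data. Each gene is represented by its brightest probe unless stated. Symbols come from the platform annotation (21790 named probes). Replicate numbers come from the labels and name heifers; the ratio within an array pairs the ages. P-values of limma set a mean against the spread between these 4 heifers, drawn toward a spread common to all tested probes. In the reported fit the heifers gave 3 degrees of freedom and the common spread 5.98. With 1 coefficient, the spread between heifers includes the difference between dye orientations. The number of heifers limits the precision, and no spot was saturated.

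The members and lists were chosen with earlier results of these data known. By rule, genes named are, per direction, the 8 of smallest unadjusted p, the stalk proteins and RPSA, the 3 of highest (RPL12, RPS2, RPS13) and the 3 of lowest level, the 5 of widest probe range, genes of 1 sign with a mean of at least 0.3, and 2 per list. Others (RPL5, RPL11, RPL13, RPL27, RPL28, RPS9, RPS16, RPS25, RPS29) were chosen after their values were seen. Alternatives were other background corrections, scalings and filters, a dye term, each orientation alone, unpaired channels and leaving out a heifer.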

Additional observations from a re-analysis of the deposited data

Results flagged for a closer look

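One value stood apart from the others of its group. The RPS3A ratio of replicate 1 was -0.91, while the other three heifers lay between -0.18 and -0.06. The gap to its nearest neighbour was 0.862 of the whole range, above Dixon's critical value for 4 samples. Of 26 values tested 1 passed, and of the 110 member probes 4 passed, where chance passes about 1 in 20.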

How the results depend on the processing

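No member probe passed an adjusted p of 0.05 in the limma fit, by the scanner ratios, without background correction, after median centring, with either other filter, without the array as a replicate block (12 probes at an unadjusted p under 0.05) or without any 1 heifer. The exceptions were the fit with a dye term (2 probes) and replicates 1 and 2 alone (25 probes), where donor age and dye changed together. The count at an unadjusted p under 0.05, 11 in the reported fit, was 22 with the dye term (16.5% of all tested probes), 46 in replicates 1 and 2 alone (23.4%), 26 in replicates 3 and 4 alone (15.0%), and from 9 to 22 when 1 heifer was left out, with 22 without replicate 4 (10.6%). The count of genes with probes of both signs, 15, was 9 after median centring. The cause of these shifts was not tested. The median over the 63 genes stayed between -0.10 and 0.08 and took both signs; all these values lie within the SD of 0.16 between array medians. Of 22 member genes named by rule, 12 kept their sign under all 12 alternatives and 10 did not, 2 of them under a scaling. Other filters and the dye term leave the mean ratio of a probe as it is, so that these alternatives could not turn a sign. Precision is limited by 4 arrays and by the difference between dye orientations.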
